A study of Mus musculus with 6 samples.

Results

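The core of the spliceosome was followed here through the transcripts of 51 subunit genes among the 25164 gene symbols measured by RNA sequencing in whole mouse ovaries at day 1. Members were taken by symbol: the Snrpa to Snrpg genes, the Snrnp, Sf3a, Sf3b and U2af genes, the numbered Prpf genes and Lsm1 to Lsm8, without Snrpn and without pseudogene symbols. The symbols alone decide membership, though the set was proposed with earlier results of these data known. All 51 had a mean of at least 1 FPKM (fragments scaled to transcript length and library size) over the 6 libraries, and all were tested. Lsm5 passed that minimum only through its wild type libraries.

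The series set hnRNPL flox/flox;Stra8-cre ovaries (cKO, 3 libraries) against wild type ovaries (WT, 3 libraries), all from C57BL/6 mice. Its title concerns hnRNPL, an RNA-binding splicing regulator, in primordial follicle formation. The Stra8-cre transgene drives Cre recombinase in germ cells, so other cells of the ovary are not its target, and every library is RNA of a whole ovary in which germ cells and somatic cells are mixed. The protocol mentions a hormone challenge before lysis, for both groups and without further detail. Whether replicate libraries stand for different animals is not stated in the labels, so p-values measure only the spread between these libraries. Fewer cells of a type and less RNA per cell cannot be told apart in bulk tissue.

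The spliceosome removes introns from precursor mRNA. It is built anew on each intron from small nuclear ribonucleoproteins (snRNPs), each of them a small nuclear RNA with a shared Sm or LSm ring and its own proteins. The U1 snRNP pairs with the 5′ splice site, U2AF and the U2 snRNP with its SF3A and SF3B complexes mark the branch point and 3′ splice site, and the U4/U6.U5 tri-snRNP then joins and is remodelled into the active enzyme. These proteins are made in every nucleated cell, growing oocytes and the somatic cells of the ovary included.

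The targeted gene, Hnrnpl, had 101, 81.5 and 85.2 FPKM in cKO and 104, 93.8 and 102 FPKM in WT, for replicates 1, 2 and 3 of each group. The difference (cKO minus WT in log2(FPKM + 1), as throughout) was −0.17 (SE 0.13, limma adjusted p = 0.571). After median-of-ratios scaling, which sets the typical gene of each library to a common level, it was −0.26 (limma adjusted p = 0.15). Its 95% interval was then −0.44 to −0.07, taken for this gene alone. The difference was negative in every fit, from −0.38 to −0.11, but no loss of Hnrnpl passed the test. The labels do not name the floxed exons. Foxl2 (57.5 to 86.5 FPKM) and Amhr2 (72.2 to 112 FPKM), markers of ovarian supporting cells, were present in all libraries.

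Transcripts of the core were well represented. The median over members of the mean level was 16.2 FPKM, against 7.3 FPKM over the 12442 tested genes, and 34 members (66.7%) had a mean of at least 10 FPKM, against 37.7% of tested genes. The genes lie on 16 chromosomes. Their principal transcripts were shorter than usual, with a median of 1820 bases against 2976 bases over tested genes, and 21 members were shorter than 1500 bases. Estimated depth was 7230000 fragments in cKO replicate 1 and between 10800000 and 14500000 in the other libraries.

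No core spliceosome subunit passed the test of cKO against WT. limma, on log2(FPKM + 1) with Benjamini-Hochberg adjustment over all tested genes, called 0 of 51 members at an adjusted p under 0.05, where 0.121% of tested genes were called (15 genes, 0.0482% higher in cKO and 0.0723% lower in cKO). The scaled values again gave 0 called members of 51, where 1.29% of tested genes were called (0.764% higher and 0.53% lower). On the deposited values the smallest adjusted p of a member was 0.211. At an unadjusted p under 0.05 limma had 2 members, Lsm1 (higher) and Lsm5 (lower), where 14.2% of all tested genes fell under that limit. No member was called under any of 17 alternative fits, in which the lowest adjusted p was 0.0934.

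Fold changes were small and their intervals set a limit on what could have been missed. The difference in log2(FPKM + 1) lay between −0.3 and 0.3 for 45 of 51 members. The 95% interval of the difference was taken gene by gene. It stayed within a 1.5-fold change of FPKM + 1 in either direction for 35 members (68.6%, against 67.0% of tested genes). It stayed within a 2-fold change of FPKM + 1 for 48. The 3 members whose interval reached beyond 2-fold were Lsm5, Snrnp27 and Snrnp25. A p that misses the threshold does not show equal levels. The intervals give the range of change in FPKM + 1 that these libraries allow. Changes in FPKM itself can be larger, most so for low members.

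**Figure D1:**
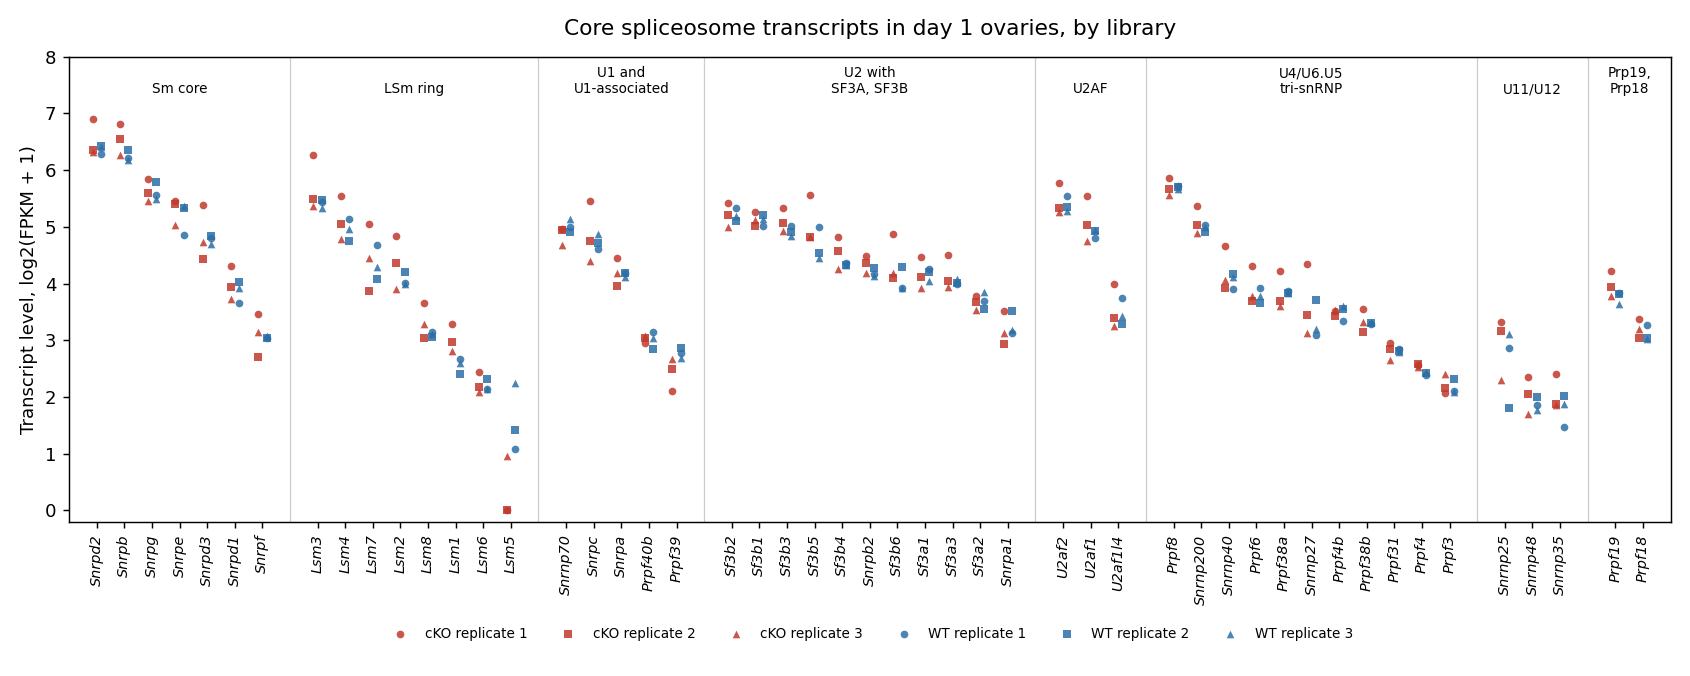
Transcript level of 50 of the 51 members in each of the 6 libraries, as log2(FPKM + 1), ordered within each role from the highest to the lowest mean; red marks cKO and blue WT, and the marker shape gives the replicate number. Levels run from Snrpd2, with a mean of 87.2 FPKM, to Lsm5, with a mean of 1.24 FPKM, and for most members cKO replicate 1 (red circle) is the top point while the other libraries lie together.

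One library stood above the rest. cKO replicate 1 held the highest value for 42 of 51 members, and it was also the highest library for 58% of tested genes. The 51 members summed to 1401 FPKM in cKO replicate 1, to 1034 and 958.6 FPKM in cKO replicates 2 and 3, and to 1015, 1028 and 1003 FPKM in WT replicates 1, 2 and 3. The member sums of the other 5 libraries lay close together, and those of cKO replicates 2 and 3 fell on either side of WT. Over all gene symbols the sum was also highest in cKO replicate 1, at 335667 FPKM. It lay between 223845 and 246121 FPKM in the other 5 libraries.

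The balance of signs depended on that library. With all 6 libraries 41 members (80.4%) had a positive difference, against 65.2% of all tested genes, and the median was 0.12 against 0.08. Without cKO replicate 1, 19 of 51 were positive and the median was −0.04. Over tested genes that fit had 6154 positive and 6199 negative differences, with a median of 0.00. After median-of-ratios scaling 29 were positive (56.9%, against 50% of tested genes) with a median of 0.03, against 0.00 over tested genes. With that scaling 11 members changed sign. On TPM-rescaled values the median was −0.09.

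Short members stood out most in cKO replicate 1. The difference between that library and the mean of the other 5 had a median of 0.58 on the log2 scale over the 21 members under 1500 bases and of 0.30 over the 30 longer ones. Over all tested genes the same medians were 0.44 (2162 shorter genes) and 0.21 (10209 longer genes). Sf3b5, with a difference of 0.84, was counted as long at 3841 bases in GENCODE, although its RefSeq gene is shorter. Only 4 members were lower in cKO replicate 1 than in the mean of the others. Across the 51 members the correlation of this difference with transcript length was −0.26 (Pearson) and −0.50 (Spearman), against −0.14 and −0.34 across tested genes, and all points share the same 6 libraries. The part of transcript length in the results was not tested beyond a fit with length and GC correction. In that fit the member median was 0.01 and 26 of 51 were positive. Of the 12442 tested genes 6334 were positive in it, with a median of 0.00.

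**Figure D2:**
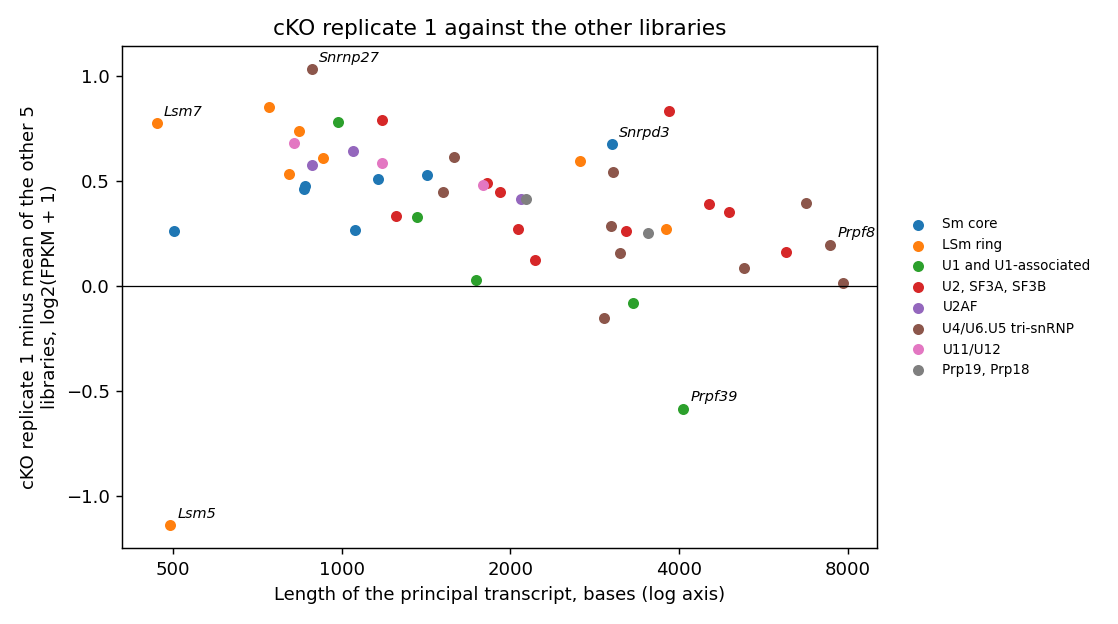
Difference between cKO replicate 1 and the mean of the other 5 libraries in log2(FPKM + 1), plotted against the length of the principal transcript in bases (log axis), 1 point for each of 50 of the 51 members, coloured by role. Points lie above 0 for all but 4 of them, and the shorter transcripts lie higher, with medians over all 51 of 0.58 under 1500 bases and 0.30 above; Lsm5, listed at 0 in this library, is the lowest point. Sf3b5 is plotted at its GENCODE length of 3841 bases.

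The 7 Sm proteins (Snrpb, Snrpd1, Snrpd2, Snrpd3, Snrpe, Snrpf and Snrpg) form the ring around the U1, U2, U4 and U5 RNAs. Snrpd2 was the most abundant member of the whole set, with 118, 81.2 and 79.2 FPKM in cKO and 76.6, 85 and 83.7 FPKM in WT (replicates 1, 2 and 3, the order kept throughout). Snrpb had 112, 92.7 and 75.8 FPKM in cKO and 73.4, 80.6 and 71.8 FPKM in WT. Snrpf was the lowest of the ring, at 10.1, 5.50 and 7.83 FPKM in cKO and 7.27, 7.18 and 7.43 FPKM in WT. In all 3 genes cKO replicate 1 was the top library and the groups overlapped.

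Levels within the ring thus spanned 11.5-fold per length, for proteins that are each present once in the assembled ring. Snrpd2 and Snrpb did not separate in their ranges over the 6 libraries. Snrpe overlapped both its neighbours in level, Snrpg above and Snrpd3 below, while Snrpg (42.9 to 56.6 FPKM) and Snrpd3 (20.7 to 40.6 FPKM) lay apart. Snrpd1 ranged from 11.6 to 18.9 FPKM, below Snrpd3 in every library. Snrpf shares 85.4% of its transcript bases with genes on the opposite strand, and use of strand in the counting is not stated, so its level is uncertain. All 7 differences were positive (median 0.11), 4 after scaling (median 0.03) and 2 without cKO replicate 1. Snrpb had the largest, at 0.29 (SE 0.16, limma adjusted p = 0.446) and 0.16 without cKO replicate 1.

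The 8 LSm proteins form the related rings, LSm2 to LSm8 on the U6 RNA in the nucleus and LSm1 to LSm7 on mRNAs that are decapped and degraded in the cytoplasm. Lsm1 is found only in the cytoplasmic ring and Lsm8 only in the nuclear one. Lsm1 (chr8:25785318-25803975, RefSeq GRCm38.p6) had 8.80, 6.83 and 6.04 FPKM in cKO and 5.38, 4.29 and 5.09 FPKM in WT. Every cKO library lay above every WT library.

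The difference for Lsm1 was 0.46 (SE 0.14, 95% interval 0.13 to 0.80), and limma gave an unadjusted p of 0.0122 and an adjusted p of 0.231. Without cKO replicate 1 it was 0.33 (limma adjusted p = 0.228) and after scaling 0.39 (limma adjusted p = 0.121), and it was positive in all 17 alternatives, from 0.32 to 0.57. Lsm8, the nuclear counterpart, had 11.7, 7.21 and 8.72 FPKM in cKO and 7.85, 7.34 and 7.59 FPKM in WT, which overlap. Its difference was 0.22 (SE 0.16, limma adjusted p = 0.528) and 0.06 without cKO replicate 1.

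Lsm5 (chr6:56701063-56704699) was the rarest member and the one with the lowest p. It was listed at 0 in cKO replicates 1 and 2 and at 0.943 FPKM in cKO replicate 3, and had 1.13, 1.68 and 3.72 FPKM in WT. The groups did not overlap, yet in read terms these levels are near the floor: with an estimated depth and the 494-base transcript they stand for about 3.39 fragments in cKO replicate 3 and 4.83, 6.82 and 12.2 fragments in WT replicates 1, 2 and 3.

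An exact 0 can be a failed estimate in an FPKM table. Of 12442 tested genes 78 were listed at 0 in both cKO replicates 1 and 2, and Lsm5 was the only 1 of them above 0 in all of the other 4 libraries. The fitted difference was −1.26 (SE 0.37, 95% interval −2.11 to −0.41, limma adjusted p = 0.211), and its size followed the pseudocount, at −3.21 with 0.1 FPKM added in place of 1 FPKM. Lsm5 has 2 pseudogene copies of at least 95% identity, which could take a share of its reads. Without WT replicate 3 its mean fell under 1 FPKM and it was not tested.

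The promoter of Lsm5 was the only 1 of 6 LSm promoters to hold a match to the ETS core described with the SF3 genes, and its 250 bases are shown for comparison with them (RefSeq GRCm38.p6, chr6:56704700-56704949, minus strand, ending at the base before the transcript start). Capitals mark the match, CTTCCGG, which is the reverse complement of CCGGAAG.
Lsm5: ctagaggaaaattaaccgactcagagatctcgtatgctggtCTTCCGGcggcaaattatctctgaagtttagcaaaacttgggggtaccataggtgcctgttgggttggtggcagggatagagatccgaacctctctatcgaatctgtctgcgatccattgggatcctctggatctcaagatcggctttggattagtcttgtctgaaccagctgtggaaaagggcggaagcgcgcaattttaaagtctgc

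For each remaining LSm gene cKO replicate 1 was the highest library. Lsm3 was the most abundant, at 76.4, 44.2 and 40.2 FPKM in cKO and 42.2, 43.2 and 39.4 FPKM in WT. Lsm2 had 27.6, 19.6 and 14 FPKM in cKO and 15.1, 17.5 and 15 FPKM in WT. Both overlapped between groups, with a difference of 0.30 each (SE 0.23 for Lsm3 and 0.21 for Lsm2) and limma adjusted p-values of 0.550 and 0.536. Without cKO replicate 1 the difference was 0.02 for Lsm3 and 0.07 for Lsm2. Lsm4, Lsm6 and Lsm7 had differences of 0.18, 0.04 and 0.12. Over the 8 genes 7 differences were positive (median 0.20), 6 after scaling (median 0.12) and 4 without cKO replicate 1 (median 0.00). Mean levels fell from 47.6 FPKM in Lsm3 to 3.66 FPKM in Lsm6, and Lsm5 was lower in every library but WT replicate 3. Neighbours in the order Lsm3, Lsm4, Lsm7, Lsm2 did not separate in their ranges, while Lsm2 and Lsm8 did.

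**Figure D3:**
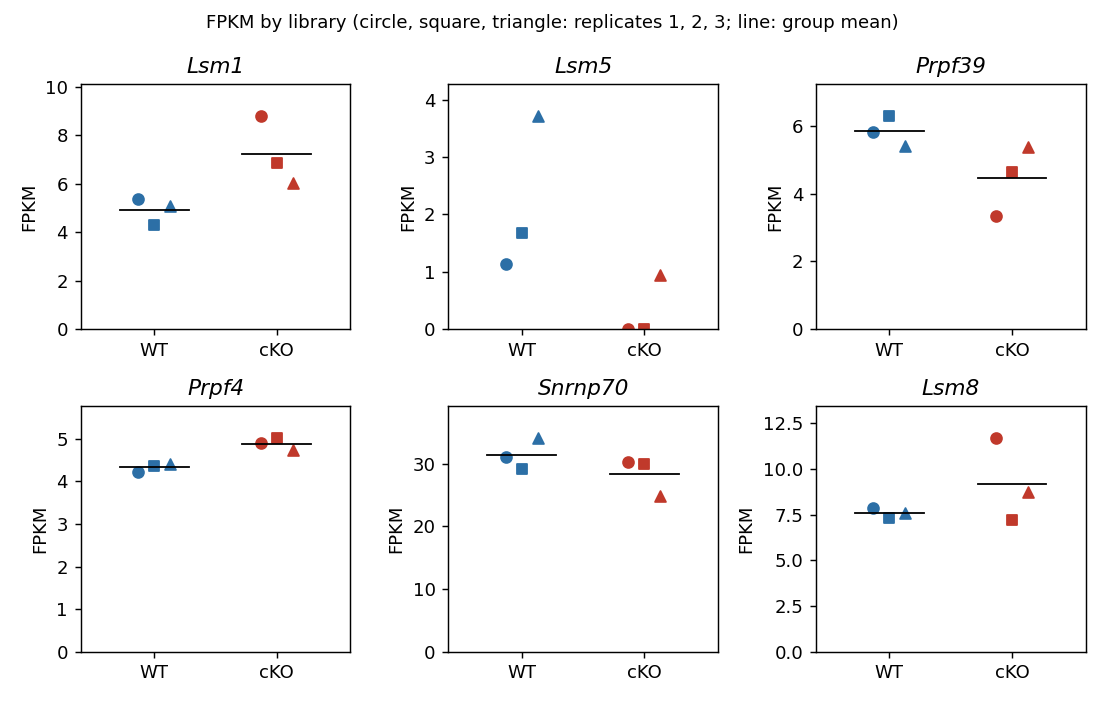
FPKM of Lsm1, Lsm5, Prpf39, Prpf4, Snrnp70 and Lsm8 in each library, on linear axes that start at 0, with cKO in red and WT in blue and a bar at the group mean except for Lsm5, whose 2 values listed at 0 may not be measured levels. Lsm1 and Prpf4 lie higher in every cKO library, Lsm5 and Prpf39 lower in every cKO library, and Snrnp70 and Lsm8 overlap.

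Proteins of the U1 snRNP recognise the 5′ splice site. Snrnp70, the U1-70K protein that binds the first stem loop of U1 RNA and contacts SR proteins, had 30.3, 29.9 and 24.8 FPKM in cKO and 31.0, 29.1 and 34.1 FPKM in WT. Its value in cKO replicate 1 lay within the range of the other libraries. Its difference was −0.15 (SE 0.12, limma adjusted p = 0.582) and −0.23 after scaling (limma adjusted p = 0.279), and it was negative in every fit, from −0.36 to −0.06. The groups overlapped in the deposited values and after scaling.

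Prpf39 (chr12:65036334-65063386), a U1-associated factor that in yeast belongs to the U1 snRNP itself, was the rarest of this group. It had 3.33, 4.65 and 5.38 FPKM in cKO and 5.81, 6.30 and 5.41 FPKM in WT. The groups were apart, but only by the gap from 5.38 to 5.41 FPKM between cKO replicate 3 and WT replicate 3. The lowest value came from cKO replicate 1, the library in which most members were highest.

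The difference for Prpf39 was −0.34 (SE 0.15, 95% interval −0.69 to 0.01, limma adjusted p = 0.358), −0.41 after scaling and −0.19 without cKO replicate 1. It shares 14.7% of its transcript bases with Fkbp3 on the opposite strand. Fkbp3 had 25.1, 14.8 and 21.8 FPKM in cKO and 12.6, 19.8 and 16.5 FPKM in WT, so cKO replicate 1 was its highest library and the lowest for Prpf39. The part of this overlap in the Prpf39 values was not tested.

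Snrpa and Snrpc, the U1-A and U1-C proteins, reached 21 FPKM and 42.9 FPKM, both in cKO replicate 1, with differences of 0.04 and 0.13. Snrpc has 3 near-identical pseudogene copies. Prpf40b, a WW-domain protein, ranged from 6.22 to 7.87 FPKM with a difference of 0.01 (SE 0.11). Over the 6 genes 4 differences were positive and 2 negative (median 0.03), and 2 were positive after scaling.

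The U2 snRNP carries SF3A and SF3B, the complexes that clamp it to the branch point. Sf3b2 was the most abundant of these 11 genes, at 42.1, 36 and 30.9 FPKM in cKO and 39.2, 33.5 and 35.7 FPKM in WT. Snrpa1, the U2-A' protein, was the lowest, at 10.4, 6.61 and 7.78 FPKM in cKO and 7.78, 10.4 and 8.05 FPKM in WT. Both overlapped fully between groups, and the whole complex lay within 4.26-fold per length, a narrower span than the Sm ring.

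Sf3b1, the branch point clamp mutated in blood cancers, was among the steadiest members. It ranged from 31.4 to 37.3 FPKM over all 6 libraries, with a difference of 0.01 (SE 0.11, 95% interval −0.25 to 0.28). Sf3b3, a scaffold of the complex, had 39.5, 32.4 and 29.3 FPKM in cKO and 31.5, 28.9 and 27.6 FPKM in WT. Its difference was 0.19 (SE 0.13, limma adjusted p = 0.536) and 0.07 without cKO replicate 1. Neighbours in the order from Sf3b2 down to Sf3a3 did not separate in their ranges.

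The small subunits of SF3B had the largest positive differences of the group, with cKO replicate 1 on top. Sf3b5 had 46.2, 27.4 and 27.3 FPKM in cKO and 30.8, 22.2 and 20.8 FPKM in WT, a difference of 0.41 (SE 0.23, limma adjusted p = 0.450) that was 0.17 without cKO replicate 1. Sf3b6, the p14 protein that sits near the branch point adenosine, had 28.4, 16.2 and 17.2 FPKM in cKO and 14.1, 18.5 and 14.2 FPKM in WT. Its difference of 0.35 (SE 0.21, limma adjusted p = 0.478) was 0.10 without cKO replicate 1. The groups overlapped in both genes.

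Sf3b4 binds the pre-mRNA just upstream of the branch point. It had 27.3, 22.8 and 18.2 FPKM in cKO and a tight 19.5, 19.2 and 19.2 FPKM in WT, with a difference of 0.21 (SE 0.14, limma adjusted p = 0.522). Snrpb2, the U2-B'' protein that pairs with U2-A', had 21.5, 19.5 and 17.2 FPKM in cKO and 16.9, 18.3 and 16.5 FPKM in WT, with a difference of 0.16 (SE 0.11, limma adjusted p = 0.533). Without cKO replicate 1 these were 0.08 for Sf3b4 and 0.09 for Snrpb2. The SF3A subunits Sf3a1, Sf3a2 and Sf3a3 had differences of 0.00, −0.03 and 0.13. Over the 11 genes 7 differences were positive, 6 after scaling and 5 without cKO replicate 1.

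A sequence match that the choice by symbol did not use was present in the promoters of most SF3 genes. Of the 51 members 41 matched RefSeq promoter windows (GRCm38.p6), with 49 windows in all, and the 250 bases before each transcript start were searched on both strands for CCGGAAG, the core bound by ETS factors. It was present in 16 of 49 member windows (32.7%), against 13.6% of 12464 windows of tested genes and 6.91% of all 32851 windows. By gene, 15 of 41 members with a window held it (36.6%), against 16.1% of 9765 tested genes with a window. Of the 9 SF3A and SF3B genes 7 had a window, and 6 of those held the match, all but Sf3b1. Of the U2 genes outside SF3, Snrpb2 held 2 matches and Snrpa1 held none. Prpf19, the only gene of its role with a window, held 1. It was in 4 of 10 tri-snRNP genes, 1 of 6 LSm, 1 of 5 Sm and 1 of 5 U1 genes, and in 0 of 2 U2AF and 0 of 3 U11/U12 genes. These groups were set side by side after the matches were seen, with no test. A match is a description of the sequence and not a bound site, and windows of 1 gene can overlap.

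The windows of the SF3A trio and of Sf3b6 are shown because the match recurs in them on either strand and, in Sf3b6, on both. They are Sf3a1 (chr11:4160104-4160353), Sf3a2 (chr10:80798485-80798734), Sf3a3 (chr4:124714611-124714860) and Sf3b6 (chr12:4817358-4817607), all on the plus strand, 5′ to 3′ and ending at the base before the transcript start. Capitals mark CCGGAAG or its reverse complement CTTCCGG.
Sf3a1: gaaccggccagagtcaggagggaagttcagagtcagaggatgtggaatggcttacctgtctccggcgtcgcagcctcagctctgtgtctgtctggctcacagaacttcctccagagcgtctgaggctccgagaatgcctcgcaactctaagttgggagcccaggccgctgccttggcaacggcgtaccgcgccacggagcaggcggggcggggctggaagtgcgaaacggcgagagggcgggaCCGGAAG
Sf3a2: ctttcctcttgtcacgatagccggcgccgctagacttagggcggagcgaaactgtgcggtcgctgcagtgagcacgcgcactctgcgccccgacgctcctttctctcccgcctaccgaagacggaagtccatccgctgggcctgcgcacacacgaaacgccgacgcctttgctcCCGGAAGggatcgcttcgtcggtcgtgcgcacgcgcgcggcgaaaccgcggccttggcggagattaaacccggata
Sf3a3: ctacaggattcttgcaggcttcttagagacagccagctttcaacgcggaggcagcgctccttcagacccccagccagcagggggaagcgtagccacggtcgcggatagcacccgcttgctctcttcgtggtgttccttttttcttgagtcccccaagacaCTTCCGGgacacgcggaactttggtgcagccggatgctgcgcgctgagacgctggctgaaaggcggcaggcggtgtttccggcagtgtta
Sf3b6: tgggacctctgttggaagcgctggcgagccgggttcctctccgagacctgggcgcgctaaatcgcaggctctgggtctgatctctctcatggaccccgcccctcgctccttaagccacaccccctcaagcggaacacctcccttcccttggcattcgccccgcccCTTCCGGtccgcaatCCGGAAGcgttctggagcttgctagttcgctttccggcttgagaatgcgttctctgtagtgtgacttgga

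The match ends at the last base of the Sf3a1 window, lies on the given strand in Sf3a2 and on the opposite strand in Sf3a3, and occurs in both orientations in Sf3b6. Shares of other promoter motifs, also searched on both strands and none of them contained in another, were close between members and tested genes. CCAAT was in 38.8% of member windows and 35.5% of tested windows, the GC box GGGCGG in 57.1% and 58.9%, and TATAAA in 6.12% and 6.41%. The median GC content of the windows was 57.2% for members and 60.0% for tested genes. None of these genes passed the test in cKO, and the promoters are described for their sequence alone.

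U2AF binds the polypyrimidine tract and the AG at the 3′ splice site. U2af2, the large subunit, had 53.5, 39.3 and 37.3 FPKM in cKO and 45.5, 40.0 and 37.9 FPKM in WT. Its difference was 0.06 (SE 0.16, 95% interval −0.31 to 0.43). U2af1, the small subunit, ranged from 25.9 to 45.4 FPKM with a difference of 0.21 (SE 0.19) that was 0.00 without cKO replicate 1.

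U2af1l4, a paralogue of U2af1, had 15, 9.46 and 8.53 FPKM in cKO and 12.4, 8.79 and 9.82 FPKM in WT. It overlaps the readthrough gene Gm49396 and Psenen over 97.4% of its transcript bases, so its level is uncertain. The 3 U2AF genes overlapped between groups. All 3 differences were positive, 1 after scaling and 0 without cKO replicate 1.

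The U4/U6.U5 tri-snRNP brings the catalytic machinery. Prpf8, the large protein at the heart of the enzyme, has a principal transcript of 7442 bases. Prpf8 had 57.2, 49.9 and 46.4 FPKM in cKO and 51.8, 51.2 and 49.6 FPKM in WT, which places it among the most abundant members. Its difference was 0.00 (SE 0.12, 95% interval −0.27 to 0.28). After scaling, all 3 cKO libraries of Prpf8 lay below WT, with a difference of −0.08 (limma adjusted p = 0.550). Snrnp200, the Brr2 helicase that unwinds U4 from U6, ranged from 28.7 to 40.4 FPKM with a difference of 0.12 (SE 0.14).

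Prpf3, Prpf4 and Prpf31 hold the U4/U6 part together. Prpf4 (chr4:62408762-62426990) had 4.90, 5.02 and 4.74 FPKM in cKO and 4.23, 4.37 and 4.42 FPKM in WT. The groups did not overlap, and cKO replicate 1 was not the highest library. The difference was 0.14 (SE 0.09, 95% interval −0.07 to 0.35, limma adjusted p = 0.494). It shrank to 0.07 after scaling, where the groups overlapped, and to −0.03 on TPM-rescaled values.

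Prpf3 was the rarest tri-snRNP member, at 3.19, 3.48 and 4.33 FPKM in cKO and 3.29, 4.0 and 3.26 FPKM in WT. Prpf31, whose human counterpart is mutated in retinitis pigmentosa, ranged from 5.30 to 6.73 FPKM with a difference of −0.01 (SE 0.11, 95% interval −0.25 to 0.24). The kinase Prpf4b had the same difference of −0.01 (SE 0.11). Prpf31 and Prpf4b were among the genes with the tightest intervals of the set.

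Snrnp27, a small tri-snRNP protein, was the widest of the group, with 19.4, 9.91 and 7.70 FPKM in cKO and 7.51, 12.1 and 8.24 FPKM in WT. Its difference of 0.30 had an SE of 0.31 and a 95% interval of −0.40 to 1.01, and it was −0.05 without cKO replicate 1. Prpf6, Snrnp40, Prpf38a and Prpf38b had differences of 0.14, 0.15, −0.01 and 0.04. Over the 11 genes 8 differences were positive (median 0.04), 5 after scaling (median −0.02) and 2 without cKO replicate 1. Levels in the tri-snRNP spanned 14.2-fold per length from Prpf8 to Prpf3.

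The U11/U12 di-snRNP recognises the rare minor class of introns, and its 3 proteins here were low. Snrnp25 had 9.04, 8.0 and 3.90 FPKM in cKO and 6.24, 2.49 and 7.63 FPKM in WT. Snrnp35, the minor counterpart of U1-70K, had 4.32, 2.67 and 2.65 FPKM in cKO and 1.77, 3.06 and 2.69 FPKM in WT. Snrnp48 lay between 2.24 and 4.12 FPKM. The scatter among WT libraries alone was 48.8% of the mean for Snrnp25 (SD over mean, n = 3), and the groups overlapped in all 3 genes.

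Their differences were 0.34 (SE 0.38), 0.26 (SE 0.20) and 0.16 (SE 0.18) for Snrnp25, Snrnp35 and Snrnp48, with limma adjusted p-values of 0.691, 0.561 and 0.694. All 3 were positive after scaling (median 0.19). Without cKO replicate 1 they were 0.14, 0.08 and 0.00, with 2 of 3 positive. The interval for Snrnp25, from −0.53 to 1.21, allows more than a 2-fold rise, so these libraries place little limit on it. Snrnp35 and Snrnp48 did not separate in level.

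Prpf19, the ubiquitin ligase that names the complex needed to activate the spliceosome, had 17.6, 14.3 and 12.8 FPKM in cKO and 13.2, 13.1 and 11.5 FPKM in WT. The difference was 0.22 (SE 0.13, limma adjusted p = 0.475) and 0.10 without cKO replicate 1. Prpf18, which acts in the step that joins the exons, had 9.32, 7.28 and 8.17 FPKM in cKO and 8.65, 7.21 and 7.10 FPKM in WT. Its difference was 0.10 (SE 0.12, limma adjusted p = 0.731) and 0.01 without cKO replicate 1. The groups overlapped in both genes.

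Over the whole set the groups did not overlap for 4 members, Lsm1 and Prpf4 higher in cKO and Lsm5 and Prpf39 lower. That is 7.84% of members, against 22.6% of tested genes (15.5% higher and 7.03% lower). After scaling the share was the same 7.84%, against 25.6%, and Prpf8 took the place of Prpf4. Lsm5 is among the 4 although it passed the level filter only through WT and its 2 values of 0 may not be measured levels. The fits share the same libraries, and the share of all tested genes that keep 1 sign was not computed. Signs that hold across fits are therefore listed only as a description. The sign of the difference was the same in every fit that tested the gene for 13 members. Those were Lsm1, Lsm2, Lsm3, Lsm8, Prpf19, Sf3b4, Sf3b5, Sf3b6, Snrnp35 and Snrpb on the higher side, and Lsm5 (with the same limit), Prpf39 and Snrnp70 on the lower.

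**Figure D4:**
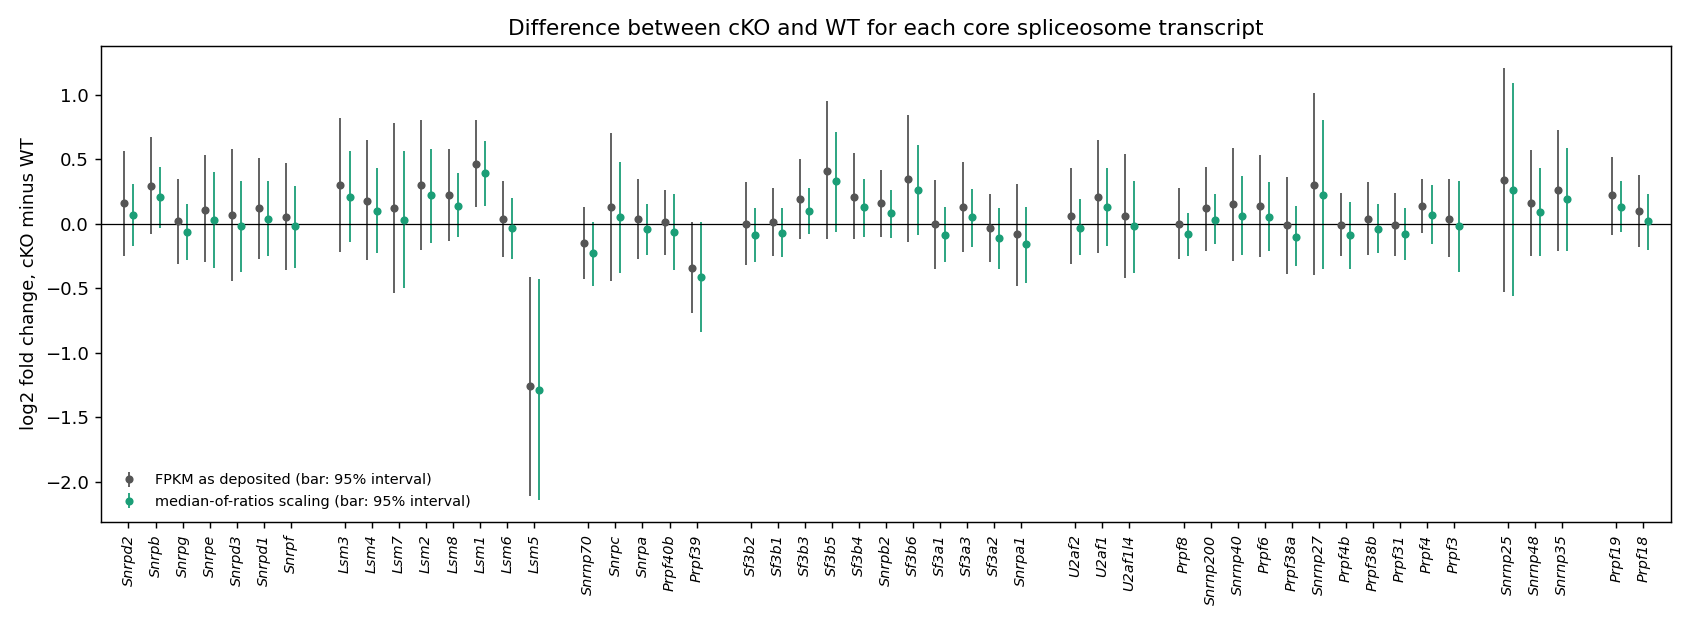
Difference between cKO and WT in log2(FPKM + 1) for 50 of the 51 members, with its 95% interval, from the deposited values and after median-of-ratios scaling, grouped by role. The interval of the deposited values leaves 0 only for Lsm1 and Lsm5, and neither passes the threshold after adjustment over all tested genes.

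The profile of the 51 levels was nearly the same in every library. The correlation of log2 levels across members was 0.965 to 0.979 between libraries of the same group and 0.937 to 0.987 between libraries of different groups. Levels of different genes share the library and are not independent replicates, so these values describe the profile only.

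Other spliceosome genes were read from lists kept by function. Of their 88 tested genes 0 were called, where 0.121% of all tested genes were called. limma had 5 of the 88 at an unadjusted p under 0.05, where 14.2% of all tested genes fell under that limit. The median difference was 0.11, against 0.08 over all tested genes, and 64 of 88 were positive (72.7%, against 65.2%). The median was 0.03 after scaling with 49 positive, and 0.00 without cKO replicate 1 with 44 positive. The count of called genes was 0 in every alternative fit as well. The groups did not overlap for 10.2% of the 88 (7 higher and 2 lower in cKO), against 22.6% of tested genes. After scaling the shares were 17% and 25.6%.

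In the snRNP assembly list, which holds the SMN complex and the methylosome that load Sm rings onto RNA, 17 of 22 differences were positive (median 0.22), 15 after scaling (median 0.14) and 13 without cKO replicate 1 (median 0.03). Strap, an SMN complex partner, had 46.1, 31.8 and 33.4 FPKM in cKO and 27.9, 29.5 and 28.4 FPKM in WT, a difference of 0.35 (SE 0.15, limma adjusted p = 0.354). Gemin8 of the same complex had 3.74, 3.37 and 3.75 FPKM in cKO and 3.44, 2.68 and 2.28 FPKM in WT. Strap was higher in every cKO library, and Gemin8 overlapped.

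Among snRNP proteins whose symbols fall outside the naming used here, 19 of 25 differences were positive (median 0.10), 14 after scaling (median 0.02) and 15 without cKO replicate 1 (median 0.01). Pdcd7, a U11/U12 protein, had 12.9, 12.2 and 9.16 FPKM in cKO and 8.63, 8.91 and 8.29 FPKM in WT, with a difference of 0.36 (SE 0.13, limma adjusted p = 0.297). Ppih, a cyclophilin of the tri-snRNP, had 3.87, 4.13 and 1.92 FPKM in cKO and 5.64, 6.00 and 4.05 FPKM in WT, with a difference of −0.56 (SE 0.23, limma adjusted p = 0.334). Pdcd7 did not overlap between groups and Ppih did.

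In the Prp19 complex list 13 of 15 differences were positive (median 0.12), 9 after scaling (median 0.03) and 7 without cKO replicate 1 (median −0.03). Cdc5l, its core scaffold, had 13.8, 10.5 and 10.6 FPKM in cKO and 8.26, 8.17 and 10.3 FPKM in WT (difference 0.35, SE 0.14, limma adjusted p = 0.327). Ppil1 had 22.7, 16.1 and 12.2 FPKM in cKO and 12.2, 10.5 and 12.3 FPKM in WT. Cdc5l was higher in every cKO library before scaling and overlapped after it.

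Of the spliceosomal helicases and factors of the exon-joining step, 10 of 16 differences were positive (median 0.05), 6 after scaling and 5 without cKO replicate 1. Cwc27 was lower in every cKO library, at 1.95, 3.48 and 3.23 FPKM against 3.70, 4.76 and 5.55 FPKM in WT, with a difference of −0.56 (SE 0.19, limma adjusted p = 0.273). Cwc25 was higher in every cKO library, at 9.56, 7.46 and 8.12 FPKM against 7.25, 6.39 and 7.01 FPKM. In the exon junction complex, which marks joined exons, 5 of 10 were positive (median 0.03), 5 after scaling and 4 without cKO replicate 1. Magohb had 1.59, 0.748 and 1.40 FPKM in cKO and 1.77, 1.68 and 1.83 FPKM in WT, and Rbm8a had 9.55, 7.92 and 6.16 FPKM in cKO and 6.18, 6.44 and 7.34 FPKM in WT.

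Summed levels of cell type markers, in FPKM as deposited, lay apart between the groups for 6 lists. Sums were higher in cKO for germ cells and pregranulosa cells. They were lower in cKO for stroma, surface epithelium, endothelium, and smooth muscle and pericytes. The sums of the oocyte, macrophage, erythroid, testis supporting and cycling cell lists overlapped between the groups. The 8 germ cell markers summed to between 102.7 and 193.2 FPKM in cKO and between 73.5 and 86.79 FPKM in WT, 7 of 8 with a positive difference. The 9 pregranulosa markers summed to between 437.2 and 544.7 FPKM in cKO and between 397.2 and 404.1 FPKM in WT, 7 of 9 positive. The 7 stroma markers summed to between 526.1 and 566.1 FPKM in cKO and between 682.1 and 713.4 FPKM in WT, 0 of 7 positive, and the 5 surface epithelium markers to between 70.61 and 100.4 FPKM and between 123.1 and 144.2 FPKM, 0 of 5 positive. The 6 endothelium markers summed to between 57.24 and 69.29 FPKM in cKO and between 71.58 and 88.76 FPKM in WT, 0 of 6 positive, and the 5 of smooth muscle and pericytes to between 29.24 and 34.59 FPKM and between 41.62 and 44.64 FPKM, 0 of 5 positive. limma called Upk1b of the surface epithelium lower in cKO, and Zp3 and Nlrp14 of the 8 oocyte markers, where 0.121% of all tested genes were called. Of the 8 oocyte markers 3 had a positive difference. The part of cell makeup in the spliceosome values was not tested.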

How the data were processed

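The authors deposited FPKM values of 25164 gene symbols for 6 libraries. Per the submitters' processing notes, the build was mm10 and the tools were featureCounts 2.0.6, STAR 2.7.11a and HISAT2 2.2.1, with no role stated. The program behind the FPKM values and its annotation are not given in the sources used here. Counts were not analysed here, so depth was estimated from the smallest FPKM steps of 2481 single-transcript genes of at least 1500 bases, assuming 200-base fragments (58.5% to 72.6% of low values lay within 0.1 of a whole number), and no counting intervals are given.

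From these values log2(FPKM + 1) was computed for 12442 genes averaging 1 FPKM or more and tested with limma 3.58.1 in R 4.3.3 (trend, two-sided, Benjamini-Hochberg adjustment, threshold 0.05). Differences are cKO minus WT on that scale, which understates changes of low genes, and SE and 95% intervals come from the same fit with n = 3 per group. "Scaled" means median-of-ratios scaling. The fit was also run on simulated data, with independent noise for each gene and a shift for each library. Those data lacked the tie to transcript length seen in cKO replicate 1, so they cannot check the fit for it. An exact permutation test of 3 against 3 libraries cannot go below p = 0.1 and was not used. Members and lists were chosen with earlier results of these data known, so no test was run over a list. Values in every library are given for the 14 members with the smallest p, for the highest and lowest member of each role, for the 2 genes with the smallest p of each other list, and for Hnrnpl. Lengths and overlaps come from GENCODE M21 principal transcripts and gene coordinates from RefSeq GRCm38.p6. The length of Sf3b5 is 3841 bases in GENCODE, while its RefSeq gene (chr10:13008450-13009183) is shorter. Alternatives were a pseudocount of 0.1, no filter or a mean of at least 5 FPKM, other scalings, length and GC correction, dropping each library in turn, a replicate block, library weights and no trend. Near-identical copies were stretches of at least 150 bases at 95% identity or more. Of the members 13 have pseudogene copies, and 7 share at least 10% of transcript bases with another gene. The counts and medians cover all 51 members, and 1 of them is not reported here by name or in the plots.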

Additional observations from a re-analysis of the deposited data

How the results depend on the processing

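The count of called core spliceosome members was 0 of the tested members with limma as reported and in all 17 alternatives. So was that of the other spliceosome lists. At an unadjusted p under 0.05 limma had 2 of 51 members and 5 of 88 listed genes, where 14.2% of all tested genes fell under that limit. The adjusted p of Hnrnpl stayed above 0.05 in each fit, with differences from −0.38 to −0.11. The count over all genes was 15 as reported, 34 with a pseudocount of 0.1 FPKM, 5 with no filter, 23 with a minimum mean of 5 FPKM, 161 after median-of-ratios scaling, 236 after quantile normalization, 149 after TPM rescaling, 267 after length and GC correction, 5 with no intensity trend and 172 with library weights. Leaving out 1 library gave 2 to 89 calls, the most without cKO replicate 1, and 95 without cKO replicate 1 and with median-of-ratios scaling, an alternative chosen after seeing the data. The cause was not tested.

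The median difference of the members was 0.12 and turned to −0.09 with TPM rescaling; leaving out 1 library gave −0.04 to 0.20, the lowest without cKO replicate 1. Of 136 medians of single roles under alternatives, 11 moved by more than the spread between replicates, in the U1, U2, tri-snRNP and Prp19 roles. That spread differed by role, so the count does not rank the roles by stability. U1 counted as moved from 0.03 to −0.06 with length and GC correction. The Sm core went from 0.11 to −0.09 with TPM rescaling and did not count. Lsm5 was not tested without WT replicate 3. With the minimum of 5 FPKM 45 members were tested, and Lsm5, Lsm6, Prpf3, Prpf4, Snrnp35 and Snrnp48 were left out.

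A replicate block on the numbers in the sample titles left 2 calls over all genes and 0 among members. Deviations of same-numbered libraries correlated at −0.011, 0.039 and 0.068, so the numbers were not taken as pairs, and replicates 2 and 3 correlated best with their own number while replicate 1 did not.

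Depth limits the rarest members: Lsm5 rests on an estimated 0 to 12.2 fragments per library, Snrnp25 on 21.4 to 56.3 and Snrnp35 on 25.2 to 41.5.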
